A study of Mus musculus with 12 samples.

Results

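The comparison was the strain by nephritis difference of responses: the change from control to anti-GBM glomerulonephritis (anti-GBM GN) in 129S2SvPAs glomeruli minus the same change in C57BL6J glomeruli. It used all 12 of the 12 arrays in the series and one probe set per gene, and the genes described are those whose response differed between the strains. The 4 groups, control and anti-GBM GN mice of the inbred strain C57BL6J and of the inbred strain 129S2SvPAs, each held 3 females aged 8 to 10 weeks with 1 Affymetrix array per mouse. Challenged mice received nephrotoxic serum on days 0, 1 and 2, and glomeruli were sieved through 100 and 45 µm mesh from kidneys taken on day 4. The labels do not say what was given to the controls. Their titles and treatment tags call them controls while a free-text description repeats the nephritis label, and the titles were followed. Cdkn1a, a cell cycle inhibitor, lay between 4.79 and 5.96 on the 6 control arrays and between 8.10 and 9.86 on the 6 anti-GBM GN arrays, so the arrays divided as the titles say.

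A glomerulus is a tuft of capillaries wrapped by podocytes and held together by mesangial cells. Nephrotoxic serum carries antibodies to the glomerular basement membrane, and their binding along the capillary wall brings endothelial activation, leukocyte recruitment, podocyte injury and proliferation of resident cells. Inbred mouse strains are known to differ in how severely they react to such serum, and a difference of responses lists genes whose change with nephritis is not the same in both strains. The data hold no measure of how severe the nephritis was.

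Signals are log2 values with a dense floor at 2 to 3, so a change that starts or ends at the floor is understated. Array medians ran from 2.99 to 3.06, and arrays of one group correlated at 0.973 to 0.994 over the genes tested. The 129S2SvPAs anti-GBM GN replicate 1 stood apart, with correlations of 0.974 and 0.973 to the other two arrays of its group, which correlated with each other at 0.994. Umod and Slc34a1, markers of the loop of Henle and of the proximal tubule, had signals of 13.43 to 13.94 and 11.85 to 12.90 over the 12 arrays, so RNA of tubules was present in every preparation. The podocyte marker Nphs1 was measured on every array, at 6.51 to 8.06 in C57BL6J and 3.42 to 6.58 in 129S2SvPAs. In bulk RNA, fewer cells of a type and less RNA per cell cannot be told apart.

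The responses of 67 of 11921 genes tested (0.562%) differed between the strains at a Benjamini-Hochberg adjusted p under 0.05 in limma. Of these, 32 (0.268% of genes tested) were more positive in 129S2SvPAs and 35 (0.294%) were more negative, with absolute differences from 0.62 to 3.73 on the log2 scale. An unadjusted p under 0.05 was reached by 1298 genes, and the median difference over all genes was 0.03. Within the strains, 845 genes (7.09%) passed the threshold in the C57BL6J response and 2424 (20.3%) in the 129S2SvPAs response. The 2 counts share no arrays, but they do not measure a difference between strains, and the difference itself was called for far fewer genes than either response.

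**Figure D1:**
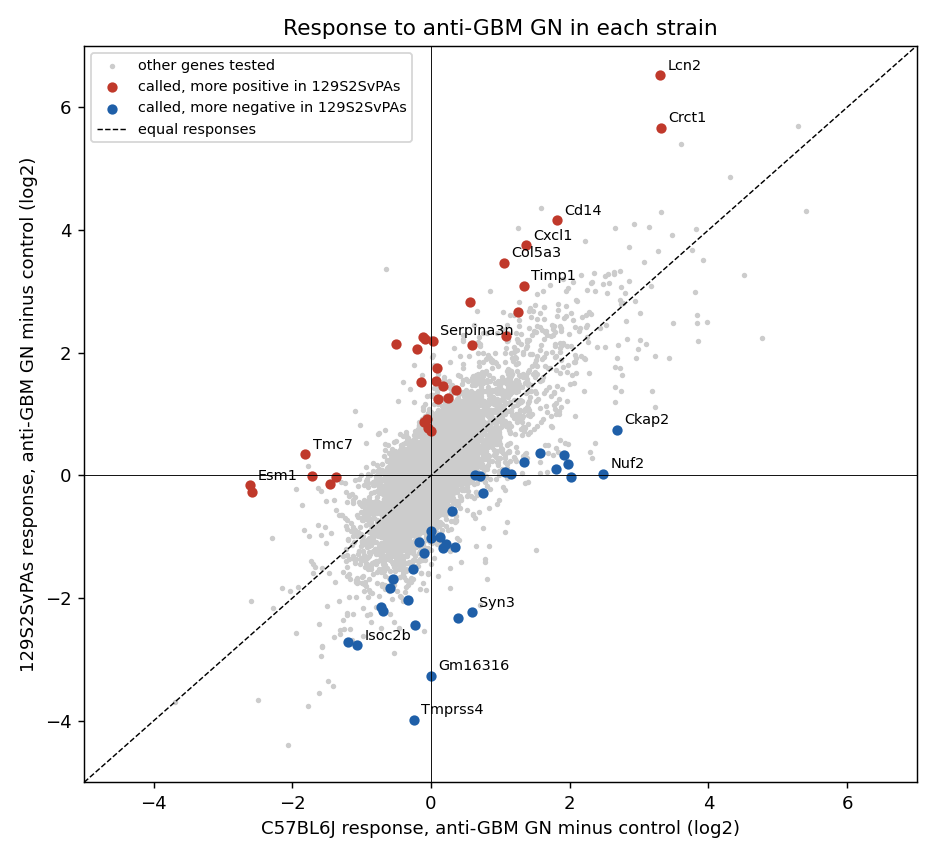
Response to anti-GBM GN in C57BL6J (x axis, log2) against the response in 129S2SvPAs (y axis, log2) for the 11921 genes tested, with the 32 genes called more positive in 129S2SvPAs in red, the 35 called more negative in blue and the dashed line marking equal responses. Lcn2, Crct1, Cd14 and Cxcl1 lie far above the line with rises in both strains, Nuf2 and Ckap2 lie below it with the larger response in C57BL6J, and Tmprss4 lies at -0.25 in C57BL6J and -3.98 in 129S2SvPAs.

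Most of these differences were of size rather than direction. Among the 32 more positive genes, 18 changed past the threshold in 129S2SvPAs alone, 8 rose in both strains and 6 fell in C57BL6J alone. Among the 35 more negative genes, 17 fell in 129S2SvPAs alone, 13 rose in C57BL6J alone and 5 fell in both strains. No gene passed the threshold in both strains with opposite signs. Here and below, alone means that the other strain's response did not pass the threshold, which does not show that it was absent. The anti-GBM GN arrays lay apart from controls the same way in both strains for 14 more positive and 12 more negative genes. For 5 genes (Syn3, Elobl, Tmc7, Ift122 and Afap1) the anti-GBM GN arrays lay entirely above the controls in one strain and entirely below them in the other. These counts describe contrasts of one fit that share arrays. The filter on low signals was passed through the arrays of a single group by 27 of the 11921 genes, and 8 of these are among the 67. They are Nuf2, Bub1, Iqgap3 and Kif18b through C57BL6J anti-GBM GN, Serpina3n, Il34 and Mab21l3 through 129S2SvPAs anti-GBM GN, and Gm16316 through 129S2SvPAs control, so that a group difference was built into their entry and their calls are a description.

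The genes also divided by where the strains started. Of the 32 more positive genes, 16 had lower control levels in 129S2SvPAs, and for 14 of these the anti-GBM GN levels of the strains did not differ past the threshold. The other 16 had control levels that did not differ past the threshold and higher anti-GBM GN levels in 129S2SvPAs. Of the 35 more negative genes, 17 had higher control levels in 129S2SvPAs, of which 10 had anti-GBM GN levels that did not differ past the threshold. A further 17 had control levels not past the threshold and lower anti-GBM GN levels in 129S2SvPAs, and Pcsk6 was lower in 129S2SvPAs in both states. Over all genes tested, the strains differed in 8.43% in control and 8.38% in anti-GBM GN. The difference of responses is the strain difference in anti-GBM GN minus that in control. A called gene therefore had to differ in control, in anti-GBM GN or in both, so the split is a description.

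**Figure D2:**
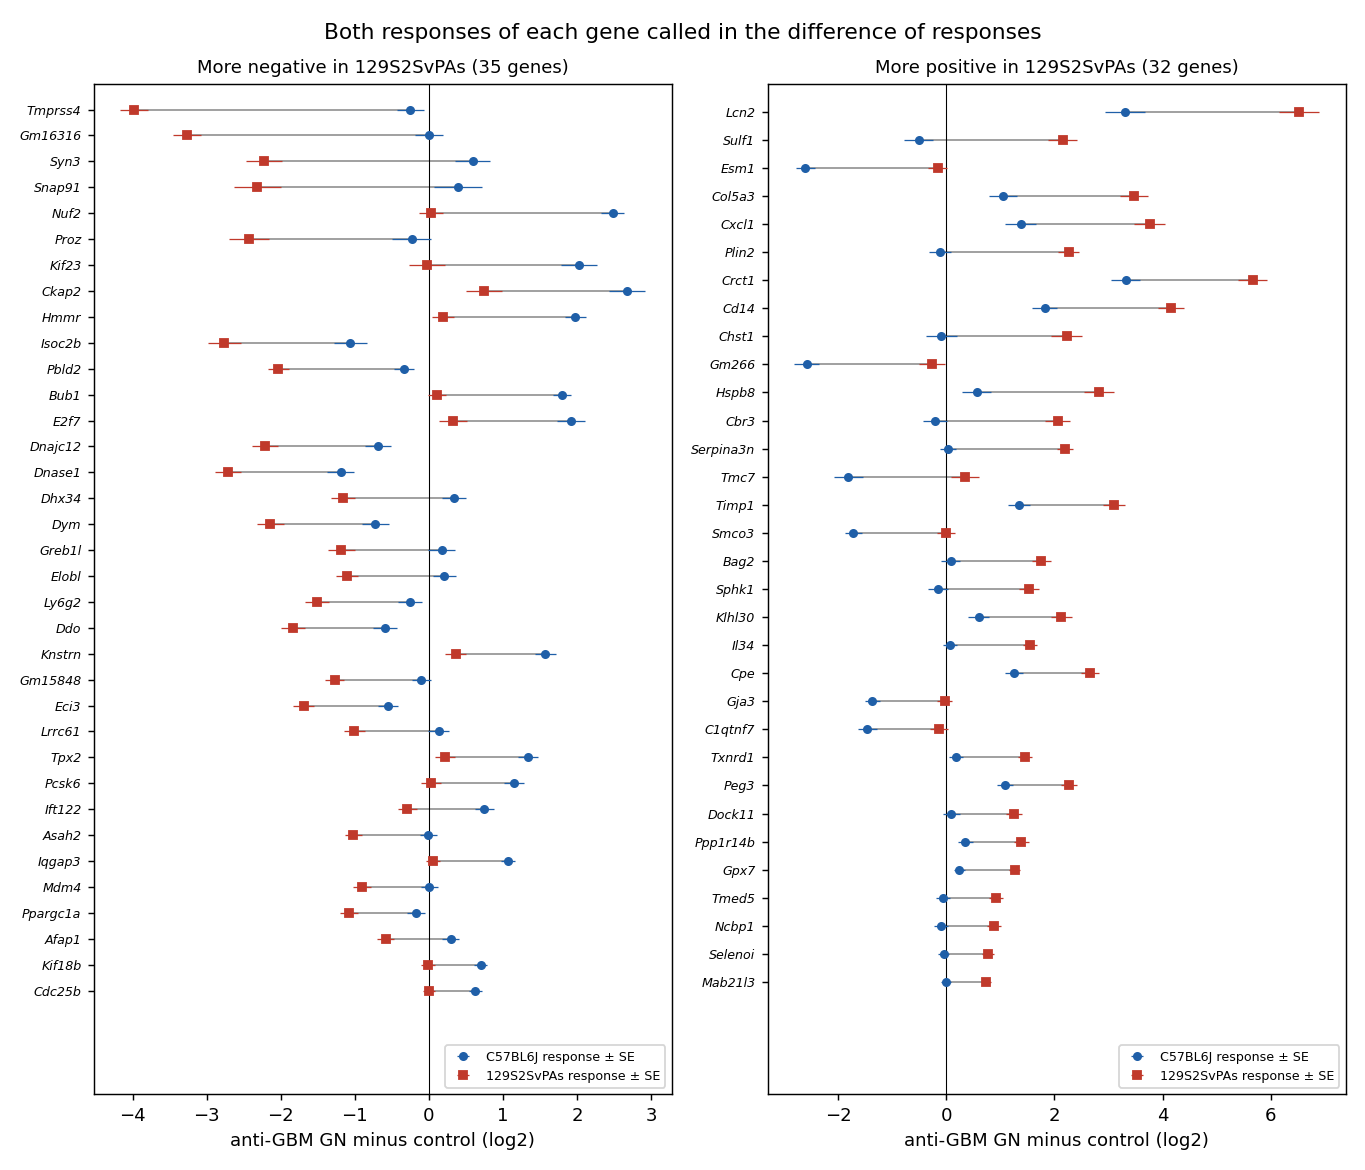
Response of each called gene in C57BL6J (blue circles) and 129S2SvPAs (red squares) on the log2 scale, with standard errors and a grey line joining the pair, for the 35 genes more negative and the 32 genes more positive in 129S2SvPAs. The red squares of Nuf2, Bub1, Kif23, Esm1 and Smco3 sit near 0, and the blue circles of Gm16316, Serpina3n, Il34 and Plin2 sit near 0.

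Removing any 1 array changed these counts by more than 1.5 times. Without replicates 1, 2 and 3 in turn, 31, 19 and 21 genes were called when the array came from C57BL6J control, and 36, 25 and 32 when it came from C57BL6J anti-GBM GN. The corresponding counts for 129S2SvPAs were 27, 15 and 35 when a control array was removed and 136, 28 and 40 when a nephritic one was. The lowest count followed removal of 129S2SvPAs control replicate 2, with 6 genes more positive and 9 more negative. The highest followed removal of 129S2SvPAs anti-GBM GN replicate 1, the array that stood apart, with 67 more positive and 69 more negative, and 63 of the 67 genes were still called. In each of the 12 fits all 67 genes kept the sign of their difference. In every one of the 12 fits 14 genes were called. These were Bub1, Cd14, Esm1, Gm16316, Hmmr, Il34, Iqgap3, Nuf2, Pbld2, Plin2, Serpina3n, Smco3, Syn3 and Tmprss4. All fits used the genes that had passed the filter on the full 12 arrays. For Bub1, Gm16316, Il34, Iqgap3, Nuf2 and Serpina3n, which entered through a single group, the calls in these fits are therefore a description.

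**Figure D3:**
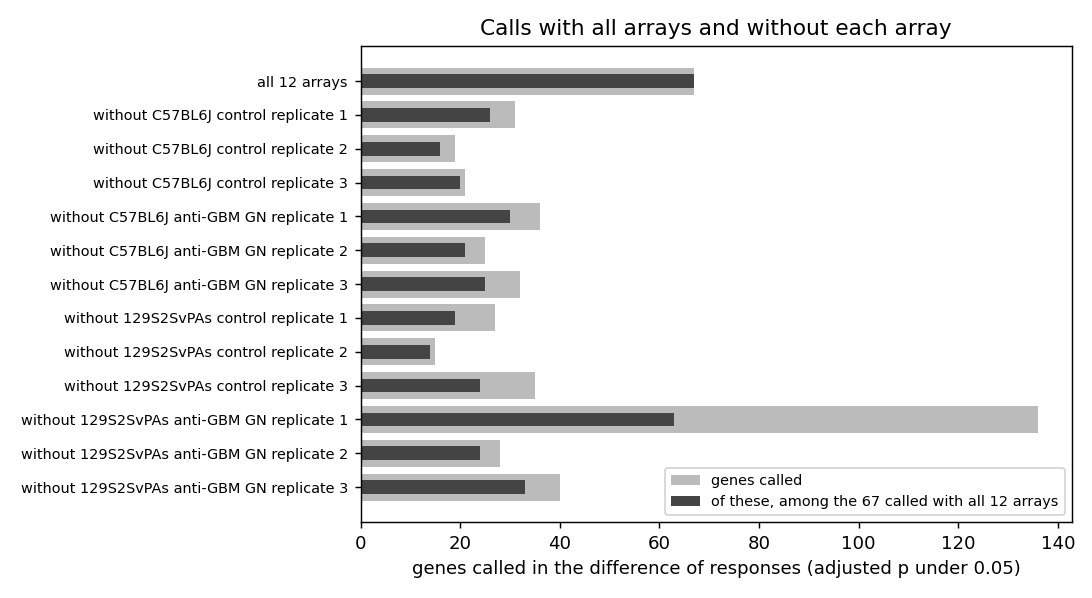
Number of genes called in the difference of responses (x axis) with all 12 arrays and without each array in turn (rows), with dark bars for those among the 67 called with all arrays. Counts ranged from 15 without 129S2SvPAs control replicate 2 to 136 without 129S2SvPAs anti-GBM GN replicate 1.

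The first group to describe rose in both strains and rose further in 129S2SvPAs. It held 8 genes, among them the iron-sequestering tubular injury protein lipocalin 2 (Lcn2), the lipopolysaccharide co-receptor Cd14, the neutrophil-attracting chemokine Cxcl1 and the metalloproteinase inhibitor Timp1. Their 129S2SvPAs responses ran from 2.27 for Peg3 to 6.52 for Lcn2, against 1.05 for Col5a3 to 3.32 for Crct1 in C57BL6J.

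Lcn2 had signals of 3.81, 3.59 and 3.56 in C57BL6J control and 6.08, 7.56 and 7.24 in C57BL6J anti-GBM GN. In 129S2SvPAs its signals were 3.60, 3.59 and 3.44 in control and 9.37, 10.20 and 10.63 in anti-GBM GN. The controls of the strains overlapped, and each 129S2SvPAs anti-GBM GN array lay above each C57BL6J one. The response was 3.31 in C57BL6J and 6.52 in 129S2SvPAs, a difference of 3.22 (SE 0.52, adjusted p = 0.0307, limma), the largest positive one among the called genes. It was called in 3 of the 12 fits without 1 array.

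Cd14 read 4.71, 5.25 and 4.54 in C57BL6J control and 6.85, 6.86 and 6.24 in C57BL6J anti-GBM GN. The 129S2SvPAs arrays read 4.77, 5.03 and 4.31 in control and 8.77, 8.91 and 8.90 in anti-GBM GN. The controls of the strains overlapped, and the nephritic arrays of the strains did not overlap. Its difference was 2.34 (SE 0.34, adjusted p = 0.0193, limma).

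Cxcl1 was at 3.32, 3.75 and 3.32 in C57BL6J control and at 5.58, 4.47 and 4.46 in C57BL6J anti-GBM GN. In 129S2SvPAs it was at 3.43, 3.72 and 3.45 in control and at 6.97, 7.56 and 7.34 in anti-GBM GN. The replicate 1 array of C57BL6J anti-GBM GN was the high one of its group, and it still lay below the 129S2SvPAs arrays. The difference was 2.38 (SE 0.40, adjusted p = 0.0358, limma), and a second probe set of the gene gave 1.26. The Cxcl1 promoter in RefSeq (GRCm38.p6) held the NF-kB letters GGGA, any base and TTTCC, searched on both strands. NF-kB is the transcription factor family through which toll-like receptor and cytokine signals reach inflammatory genes. The sequence is shown because it places that motif, in capitals, beside the one called chemokine. Its first base lies 71 bases before the start, on the plus strand of chr5:90891124-90891233.
Cxcl1 promoter: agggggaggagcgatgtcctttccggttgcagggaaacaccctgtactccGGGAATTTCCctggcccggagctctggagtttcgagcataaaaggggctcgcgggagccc
Of 9666 tested genes with a RefSeq promoter of 300 bases (250 before to 50 after the start), 48 (0.497%) held this motif, and it was found in 2 of the 25 more positive genes that had one, Cxcl1 and Ncbp1. A match describes letters only.

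Timp1 rose from 2.23, 2.34 and 2.23 to 3.51, 3.52 and 3.79 in C57BL6J and from 2.43, 2.47 and 2.37 to 5.0, 5.57 and 5.98 in 129S2SvPAs. The difference was 1.75 (SE 0.28, adjusted p = 0.0307, limma), with no overlap between the nephritic arrays. Col5a3, a fibrillar collagen chain, went from 2.49, 2.49 and 2.56 to 3.13, 3.39 and 4.17 in C57BL6J and from 2.78, 2.60 and 2.56 to 6.61, 5.90 and 5.83 in 129S2SvPAs. Its difference was 2.42 (SE 0.37, adjusted p = 0.0253, limma). Crct1 showed the second largest 129S2SvPAs rise of the group, 5.67 against 3.32, with a difference of 2.35 (SE 0.38, adjusted p = 0.0307, limma). Cpe, a carboxypeptidase that processes peptide hormones, and Peg3, an imprinted zinc finger gene, differed by 1.41 and 1.19. Without 1 array, Timp1, Cpe, Peg3 and Cxcl1 were each called in 2 of the 12 fits, Col5a3 in 5 and Crct1 in 1.

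Each list set beside these genes had 1 called member, where 0.268% of all genes were called more positive. At that share, a count of 1 does not describe the rest of a list. This also applies to the lists below with 1 called member. Of 32 epithelial injury and repair genes tested, Lcn2 alone was called, 24 had differences above 0, and the median was 0.36. In C57BL6J 17 members rose and 1 fell, and in 129S2SvPAs 22 rose and 1 fell, where 7.09% and 20.3% of all genes changed. Havcr1 (KIM-1), a protein that injured tubule cells expose, had a larger estimate than most called genes, 2.77 with a 95% interval from 0.39 to 5.15 (adjusted p = 0.376, limma). Its 129S2SvPAs anti-GBM GN arrays were spread over 5.53, 8.32 and 8.95, against 3.16, 5.24 and 4.33 in C57BL6J anti-GBM GN. Without the 5.53 array, the one that stood apart, its difference was 3.81 and passed the threshold. Of 27 toll-like receptor and NF-kB genes, Cd14 alone was called and the median was 0.14. Of 14 chemokines, Cxcl1 alone was called, with 7 members on each side of 0.

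Leukocyte marker lists were set beside Cd14 and Lcn2, which belong to them. Of 16 monocyte and macrophage genes, Cd14 was called more positive and none more negative, 13 had differences below 0, and the median was -0.50. The list mean, in log2 units relative to each gene's mean, ran from -0.25 to 0.39 in C57BL6J control and from 0.15 to 0.94 in C57BL6J anti-GBM GN. In 129S2SvPAs it ran from -0.81 to 0.07 in control and from -0.42 to -0.24 in anti-GBM GN. Of 6 neutrophil genes, Lcn2 was the called one, and 3 had differences above 0 and 3 below. What part leukocyte RNA has in the Cd14 and Lcn2 differences was not tested.

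The second group, of 18 genes, rose in 129S2SvPAs and not past the threshold in C57BL6J. Some of these were near the floor in C57BL6J in both states. Serpina3n, an acute-phase inhibitor of serine proteases, read 2.44, 2.44 and 2.42 in C57BL6J control and 2.44, 2.45 and 2.50 in C57BL6J anti-GBM GN. In 129S2SvPAs it read 2.93, 2.55 and 3.00 in control and 4.76, 5.07 and 5.23 in anti-GBM GN, and its difference was 2.16 (SE 0.20, adjusted p = 0.0016, limma). Il34, a ligand of the macrophage colony stimulating factor receptor, lay between 2.07 and 2.30 in all groups but 129S2SvPAs anti-GBM GN, where it was at 3.56, 3.41 and 3.91. Its difference was 1.48 (SE 0.18, adjusted p = 0.00641, limma). Sphk1, which makes the lipid signal sphingosine 1-phosphate, was at 4.29, 4.23 and 5.02 in 129S2SvPAs anti-GBM GN and between 2.64 and 3.07 elsewhere, a difference of 1.67 (SE 0.26, adjusted p = 0.0283, limma). Mab21l3 showed the same layout at lower signal, 3.07 to 3.28 against 2.35 to 2.47 elsewhere. Each of these 4 genes was at or below 3.03, the median of the whole table, on all 6 C57BL6J arrays, so its C57BL6J response is bounded by the floor. Without 1 array, Serpina3n and Il34 were called in all 12 fits, Sphk1 in 4 and Mab21l3 in 1. Serpina3n, Il34 and Mab21l3 entered through 129S2SvPAs anti-GBM GN alone and were not filtered again, so their calls are a description.

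Other members of the group were well expressed in both strains. Plin2, which coats lipid droplets, read 9.40, 9.39 and 9.69 in C57BL6J control and 9.17, 9.39 and 9.58 in C57BL6J anti-GBM GN, so its arrays overlapped. In 129S2SvPAs it read 7.83, 8.47 and 8.48 in control and 10.72, 10.57 and 10.27 in anti-GBM GN. The strain order was reversed by nephritis, from lower to higher in 129S2SvPAs, and the difference was 2.37 (SE 0.28, adjusted p = 0.00587, limma). Of 29 genes of lipid droplets, lipid uptake and PPAR gamma, Plin2 alone was called, and the median was 0.00. Pparg itself differed by -0.02 (95% interval -0.56 to 0.53) and had signals from 2.72 to 3.41, near the floor.

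NRF2 is a transcription factor that switches on detoxifying and antioxidant enzymes under oxidative stress, and 2 of 41 genes of its pathway were called, both more positive (4.88%, against 0.268% of all genes). Txnrd1, a thioredoxin reductase, read 9.18, 9.21 and 9.36 in C57BL6J control and 9.22, 9.60 and 9.47 in C57BL6J anti-GBM GN. It read 8.90, 8.87 and 9.01 in 129S2SvPAs control and 10.16, 10.44 and 10.54 in 129S2SvPAs anti-GBM GN. As with Plin2, 129S2SvPAs arrays were below C57BL6J arrays in control and above them in anti-GBM GN, and the difference was 1.27 (SE 0.19, adjusted p = 0.0222, limma). Cbr3, a carbonyl reductase, had a difference of 2.26 (SE 0.32, adjusted p = 0.0193, limma), with 129S2SvPAs signals of 4.88, 4.68 and 5.03 in control and 7.40, 6.40 and 6.96 in anti-GBM GN. C57BL6J signals of Cbr3 stayed within 5.24 to 5.67. The median over the 41 genes was 0.24 and 30 lay above 0. In C57BL6J 2 rose and 2 fell, and in 129S2SvPAs 7 rose and 3 fell, shares near those of all genes (7.09% and 20.3%). Without 1 array, Txnrd1 was called in 7 of the 12 fits and Cbr3 in 10. No member was called without C57BL6J control replicate 2 or without 129S2SvPAs control replicate 2, and 1 was called without C57BL6J control replicate 3, 129S2SvPAs control replicate 1 or 129S2SvPAs anti-GBM GN replicate 2. Txnrd1 is printed because it is the more highly expressed of the pair and its promoter (GRCm38.p6, plus strand, chr10:82859064-82859172) held the antioxidant response element TGACNNNGC, read here on the other strand as the capitals.
Txnrd1 promoter: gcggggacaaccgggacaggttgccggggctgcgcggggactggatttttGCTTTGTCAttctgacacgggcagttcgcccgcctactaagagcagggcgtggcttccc
These letters were in 2 of the 25 more positive promoters (8.0%) and in 16.8% of promoters of all tested genes, a lower share among the called genes.

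Glutathione peroxidase 7 (Gpx7) also rose in 129S2SvPAs, from 4.32, 4.43 and 4.24 to 5.51, 5.66 and 5.61, while C57BL6J arrays lay at 5.60 to 5.67 in control and 5.70 to 6.02 in anti-GBM GN. Its difference was 1.02 (SE 0.15, adjusted p = 0.0228, limma). The small heat shock protein Hspb8 went from 3.80, 4.03 and 3.96 to 6.25, 6.99 and 7.02 in 129S2SvPAs and from 5.37, 5.35 and 5.08 to 6.47, 5.48 and 5.53 in C57BL6J. Its difference was 2.26 (SE 0.38, adjusted p = 0.0358, limma), and 2 other probe sets gave 1.41 and 0.79. Bag2, a co-chaperone of Hsp70, differed by 1.68 (SE 0.25, adjusted p = 0.0222, limma), with 129S2SvPAs control arrays at 4.46 to 5.06 and every other array at 5.77 to 6.58. Of 30 heat shock genes Hspb8 alone was called, 27 lay above 0, and the median was 0.215. Bag2 and the co-chaperone Dnajc12, described below, were called but are not in that list. Gpx7 and Bag2 control arrays of 129S2SvPAs lay below those of C57BL6J. Without 1 array, Bag2 was called in 8 of the 12 fits, Gpx7 in 5 and Hspb8 in 2.

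The glycosaminoglycan genes made the largest set of more positive calls from any list, 3 of 30 (10%, against 0.268% of all genes), though the list median was 0.05. Heparan sulfate chains line the glomerular capillary wall, and Sulf1 trims sulfate groups from them outside the cell. Sulf1 was at 6.02, 6.0 and 5.50 in C57BL6J control, 5.91, 4.85 and 5.24 in C57BL6J anti-GBM GN, and 3.72, 3.28 and 3.29 in 129S2SvPAs control. In 129S2SvPAs anti-GBM GN it was at 5.43, 5.93 and 5.38, inside the C57BL6J range. The difference was 2.66 (SE 0.38, adjusted p = 0.0193, limma), and a second probe set gave 0.93. Chst1, a sulfotransferase of keratan sulfate, rose from 6.10, 5.61 and 6.30 to 8.65, 8.32 and 7.72 in 129S2SvPAs, while C57BL6J arrays overlapped at 7.18 to 8.03. Its difference was 2.32 (SE 0.41, adjusted p = 0.0384, limma). The count was 1 without C57BL6J control replicate 2 or 129S2SvPAs control replicate 2. Of the 12 fits without 1 array, Sulf1 was called in 10 and Chst1 in 3. Sulf1 is also a podocyte gene, and of 46 podocyte genes it was the called one, with a median of 0.22. Wt1 differed by 0.34 (95% interval -0.88 to 1.57), and Nphs1 by -1.18 (95% interval -2.57 to 0.22).

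The remaining 6 genes of this group had differences from 0.82 for Selenoi, an enzyme of phosphatidylethanolamine synthesis, to 1.53 for Klhl30. Dock11, an activator of the GTPase Cdc42, was at 3.95 to 4.19 in 129S2SvPAs control, 5.19 to 5.37 in 129S2SvPAs anti-GBM GN and 5.46 to 6.03 in C57BL6J, and was the gene whose levels stayed lower in 129S2SvPAs in both states. Tmed5, of vesicle transport, Ncbp1, of the nuclear cap-binding complex, and the phosphatase inhibitor Ppp1r14b differed by 0.98, 0.98 and 1.04. Tmed5 had 3 other probe sets past the filter, which gave 0.36, 0.34 and -0.01. Without 1 array, Klhl30 was called in 3 of the 12 fits, Dock11 in 2, Tmed5, Ncbp1 and Selenoi in 1, and Ppp1r14b in none.

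The third glycosaminoglycan call, Esm1, belonged to a group of 6 genes that fell in C57BL6J and did not pass the threshold in 129S2SvPAs. Esm1 encodes endocan, a proteoglycan released by activated endothelium. Its signals were 7.84, 8.04 and 7.41 in C57BL6J control and 5.21, 5.22 and 5.05 in C57BL6J anti-GBM GN. In 129S2SvPAs they were 5.30, 5.81 and 5.44 in control and 5.26, 5.26 and 5.55 in anti-GBM GN. Nephritic C57BL6J glomeruli thus came down to the level that 129S2SvPAs glomeruli had in both states. The C57BL6J response was -2.60, the 129S2SvPAs response -0.16 and the difference 2.44 (SE 0.26, adjusted p = 0.0028, limma).

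The same layout held for the others. Gm266 fell from 6.09, 5.96 and 5.01 to 3.14, 3.06 and 3.13 in C57BL6J and lay between 3.07 and 3.59 in 129S2SvPAs. Smco3 fell from 5.02, 5.21 and 4.82 to 3.70, 3.14 and 3.07 and lay between 3.13 and 3.18 in 129S2SvPAs. Gja3, the gap junction protein connexin 46, fell from 4.64, 5.26 and 5.01 to 3.49, 3.66 and 3.67 and lay between 3.66 and 3.74 in 129S2SvPAs. The differences were 2.31, 1.71 and 1.33, with adjusted p of 0.0193, 0.0131 and 0.0228 in limma. C1qtnf7 was at or below 3.03 on all 6 129S2SvPAs arrays and differed by 1.32. Tmc7, of the transmembrane channel-like family, fell in C57BL6J from 6.24, 6.86 and 6.34 to 5.19, 4.05 and 4.77, while 129S2SvPAs went from 4.77, 4.42 and 4.80 to 4.86, 4.99 and 5.18. The direction of Tmc7 differed between strains by its arrays, although the 129S2SvPAs response of 0.35 did not pass the threshold. In all 6 genes the 129S2SvPAs controls lay below the C57BL6J controls. For C1qtnf7, Smco3 and Gm266, which read 2.64 to 3.59 on all 129S2SvPAs arrays, the floor limits any further fall. Whether Gja3, flat at 3.66 to 3.74 in 129S2SvPAs, is limited in the same way was not tested. Without 1 array, Gm266 was called in 9 of the 12 fits, Gja3 in 6, Tmc7 in 2 and C1qtnf7 in 1.

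Esm1 fell in C57BL6J while more of the endothelial list rose than fell. Of 44 tested, 11 rose and 2 fell in C57BL6J, while 27 rose and 1 fell in 129S2SvPAs, against 7.09% and 20.3% of all genes that changed. The median difference was 0.56, 35 lay above 0, and Esm1, which is in the list, was the called one. The list mean was -1.43 to -0.44 in 129S2SvPAs control, -0.23 to 0.28 in C57BL6J control, 0.17 to 0.40 in 129S2SvPAs anti-GBM GN and 0.34 to 1.04 in C57BL6J anti-GBM GN. The median ranged from 0.18 without 129S2SvPAs control replicate 3 to 0.95 without 129S2SvPAs control replicate 2, a range set by which control array was left out. With the list mean of each array as a covariate, 23 genes were called, of which 20 were among the 67. Nos3, the endothelial nitric oxide synthase, rose in both strains and differed by 0.87 (95% interval -0.16 to 1.90, adjusted p = 0.555, limma).

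Mitosis was the list with the most called genes. Dividing cells build a spindle, attach chromosomes through kinetochores and split by cytokinesis, and the transcripts for these steps peak late in the cell cycle. Of 74 such genes on the array 58 passed the filter, 7 of them through the C57BL6J anti-GBM GN arrays alone, and 9 of the 58 were called more negative and none more positive in limma. Of the 9, Nuf2, Bub1, Iqgap3 and Kif18b entered in that way and the other 5 did not, so the count of 9 is a description. With no filter all 74 were tested, and 7 (9.46%) were called more negative and none more positive, where 0.132% of the 18201 genes were called more negative. Those 7 were Nuf2, Bub1, Hmmr, Iqgap3, Tpx2, Kif18b and Cdc25b. The median difference over the 74 was -0.62, and 67 of them lay below 0. Of the 58 that passed the filter, 46 rose in C57BL6J and none fell, while in 129S2SvPAs 19 rose and 1 fell, where 7.09% and 20.3% of all genes changed. These counts include the 7 that entered through C57BL6J anti-GBM GN alone, for which a higher C57BL6J anti-GBM GN signal was built in. The counts are therefore a description. Over the 51 others the median difference was -0.71.

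Nuf2, a subunit of the NDC80 complex that ties kinetochores to microtubules, was at 2.86, 2.76 and 2.84 in C57BL6J control and at 5.61, 5.42 and 4.88 in C57BL6J anti-GBM GN. In 129S2SvPAs it stayed at 2.85, 2.88 and 2.87 in control and 2.87, 2.92 and 2.90 in anti-GBM GN. All 6 arrays of 129S2SvPAs were therefore at the floor and only the nephritic C57BL6J arrays were above it. The difference was -2.45 (SE 0.22, adjusted p = 0.00139, limma).

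Bub1, a kinase of the spindle checkpoint, rose from 2.49, 2.47 and 2.47 to 4.35, 4.21 and 4.27 in C57BL6J. In 129S2SvPAs it read 2.55, 2.58 and 2.63 in control and 2.52, 2.60 and 2.96 in anti-GBM GN, a difference of -1.69 (SE 0.17, adjusted p = 0.002, limma). Kif23, a kinesin of the central spindle needed for cytokinesis, rose from 3.73, 3.50 and 3.94 to 6.17, 5.87 and 5.20 in C57BL6J and was at 3.66, 3.61, 3.62 and then 3.18, 3.80, 3.82 in 129S2SvPAs. Its difference was -2.05 (SE 0.35, adjusted p = 0.0358, limma), and another probe set with signals of 3.19 to 3.53 gave -0.01. In each of these genes no 129S2SvPAs anti-GBM GN array reached the lowest nephritic C57BL6J array.

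Hmmr, a spindle-associated hyaluronan receptor, differed by -1.79 (SE 0.21, adjusted p = 0.00559, limma), with C57BL6J signals of 5.25, 4.75 and 5.24 in anti-GBM GN and 3.23, 3.32 and 3.46 in 129S2SvPAs anti-GBM GN. Its probe sets disagreed, since 2 others past the filter gave 0.07 and -0.44. Iqgap3, a scaffold protein of proliferating cells, differed by -1.01 (SE 0.13, adjusted p = 0.0128, limma), from C57BL6J signals of 2.36 to 2.41 and 3.38 to 3.60 and 129S2SvPAs signals of 2.38 to 2.52. Ckap2, a spindle protein, had the largest C57BL6J rise of the 9, from 3.18, 3.18 and 3.24 to 5.57, 6.09 and 5.97. In 129S2SvPAs it went from 3.07, 3.07 and 3.21 to 3.25, 4.45 and 3.88, with the low value on the array that stood apart. Its difference was -1.93 (SE 0.35, adjusted p = 0.0435, limma). Tpx2, a spindle assembly factor that activates Aurora A, the kinesin Kif18b and the cell cycle phosphatase Cdc25b differed by -1.12, -0.71 and -0.62. Nuf2, Bub1, Hmmr and Iqgap3 were called in all 12 fits without 1 array. Kif23 and Ckap2 were called in 2, and Tpx2, Kif18b and Cdc25b in 1. The filter was not applied again in these fits, so the calls of Nuf2, Bub1, Iqgap3 and Kif18b remain a description.

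**Figure D4:**
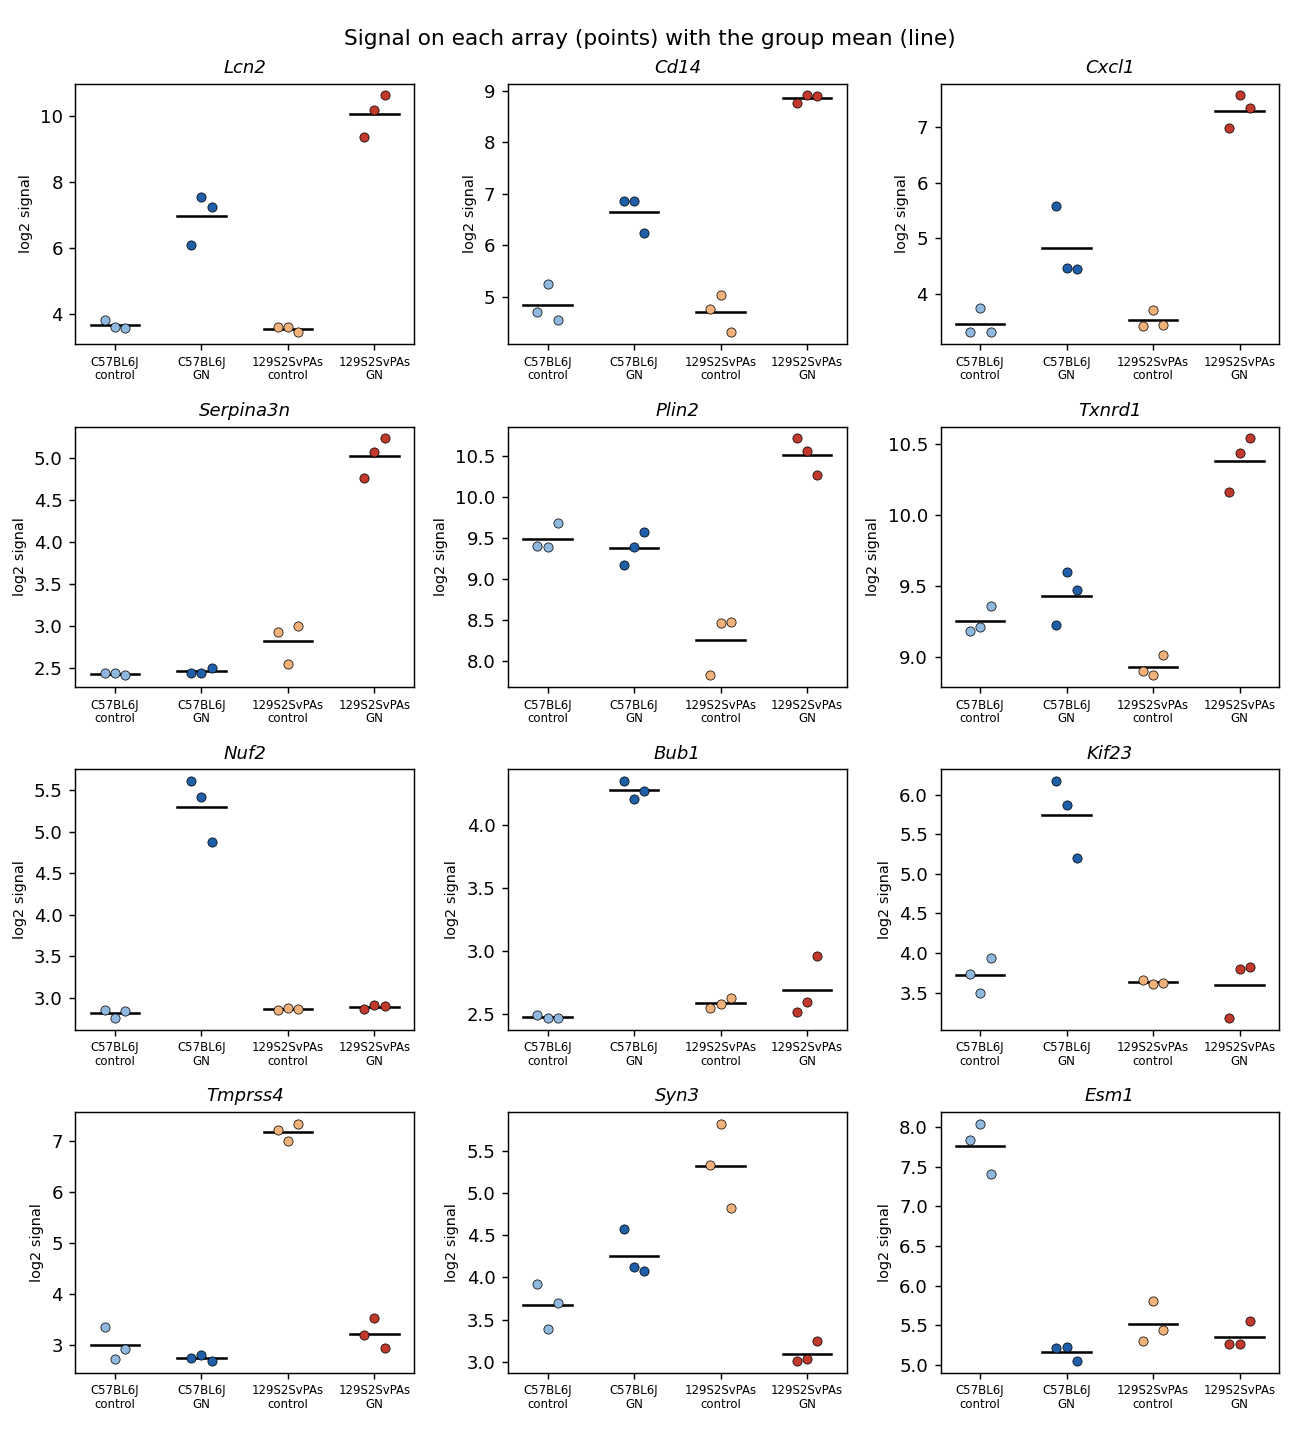
Log2 signal (y axes, each with its own range) on every array of the 4 groups (x axes) for 12 genes, with a point per array and a line at the group mean. Lcn2, Cd14 and Cxcl1 are highest in 129S2SvPAs anti-GBM GN, Nuf2, Bub1 and Kif23 are raised in C57BL6J anti-GBM GN alone, Tmprss4 and Syn3 are highest in 129S2SvPAs control, and Esm1 is highest in C57BL6J control.

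Genes of late cell cycle phases commonly carry the letters TTTGAA, called the cell cycle homology region, near their start. They were found on either strand in 33 of 47 mitosis genes with a RefSeq promoter (70.2%), in 5 of the 8 called mitosis genes with one (62.5%) and in 14.4% of all 9666 promoters. The share was no higher among the called mitosis genes than among all mitosis genes. The 5 windows of 30 bases are shown because these genes share the motif, in capitals, as well as the response, with GRCm38.p6 coordinates and strand. They come from chr8:22185903-22185932 (minus) for Ckap2, chr11:40733412-40733441 (minus) for Hmmr, chr3:88082020-88082049 (plus) for Iqgap3, chr11:102925104-102925133 (minus) for Kif18b and chr9:61946780-61946809 (minus) for Kif23.
Ckap2: gctttgttcgatTTTGAAatttctcgccgg
Hmmr: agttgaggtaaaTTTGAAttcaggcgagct
Iqgap3: agcggcgggagaTTCAAAactggcaggaga
Kif18b: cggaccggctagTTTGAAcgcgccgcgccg
Kif23: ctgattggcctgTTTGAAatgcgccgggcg
In Iqgap3 the motif is read on the opposite strand. Its first base lay 101 and 19 bases before the start in Ckap2 and Iqgap3, and was base 9, 4 and 3 of the transcript in Hmmr, Kif18b and Kif23, with the start counted as base 1.

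Knstrn, a kinetochore protein, and E2f7, a transcriptional repressor of cell cycle genes, followed the same layout. Knstrn was at 4.38, 4.32 and 4.72 in C57BL6J anti-GBM GN and 2.95, 3.36 and 3.42 in 129S2SvPAs anti-GBM GN, and E2f7 at 5.18, 5.11 and 4.58 against 3.25, 3.51 and 3.25. Their differences were -1.21 and -1.60, with adjusted p of 0.0358 each in limma. They were called in 2 and 3 of the 12 fits without 1 array. Another probe set of Knstrn past the filter gave -0.25.

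Genes of DNA replication and nucleotide supply act earlier in the cell cycle. E2f7 was the called one of 47 (2.13%, against 0.294% of all genes), and the median was 0.00. In C57BL6J 9 of the 47 rose and in 129S2SvPAs 12, with none falling, where 7.09% and 20.3% of all genes changed. No difference between this list and the mitosis list was tested. Mki67, the proliferation marker, rose in both strains, by 3.49 in C57BL6J and 2.48 in 129S2SvPAs, and its difference of -1.01 (95% interval -2.63 to 0.62, adjusted p = 0.711, limma) did not pass. Ckap2 is also the one called gene of 31 p53 targets and G1 regulators, whose median was 0.16. Cdkn1a rose by 3.82 in C57BL6J and 4.02 in 129S2SvPAs, with a difference of 0.20 (95% interval -1.08 to 1.48).

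The array that stood apart weighs on the mitosis list. The list mean was taken over the 58, with the 7 that entered through C57BL6J anti-GBM GN alone. It was 1.11 to 1.24 in C57BL6J anti-GBM GN and -0.52 to 0.33 in 129S2SvPAs anti-GBM GN, and replicate 1 gave the -0.52. Without it 10 members were called more negative and the median over the 58 moved from -0.76 to -0.47. Without any other single array 4 to 7 members were called. The median was -0.78 after quantile normalization and -0.71 with all arrays shifted to one median. With a filter at the 75th percentile of all signals, 16 members were tested and none was called, but none of the 9 called members was among those 16.

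**Figure D5:**
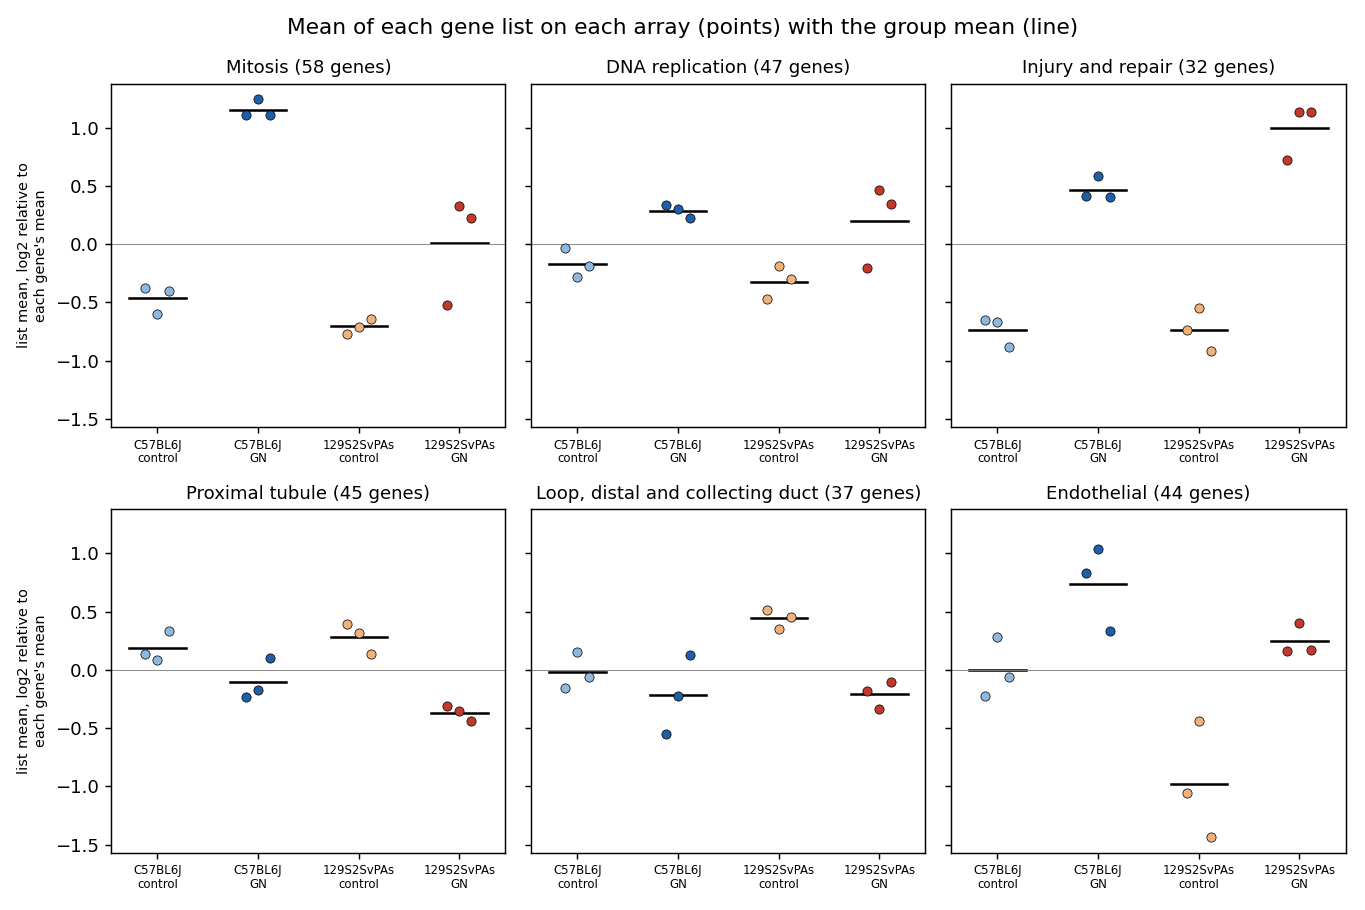
Mean of 6 gene lists on each array (y axis, log2 relative to each gene's mean over the 12 arrays) in the 4 groups (x axis), with a point per array and a line at the group mean. Mitosis genes are highest in C57BL6J anti-GBM GN, at 1.11 to 1.24, the 129S2SvPAs anti-GBM GN points spread from -0.52 to 0.33, and proximal tubule genes are lowest in 129S2SvPAs anti-GBM GN, at -0.44 to -0.31.

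Pcsk6 and Ift122 completed the 13 genes that rose in C57BL6J alone. Pcsk6, a proprotein convertase, rose from 4.13, 4.48 and 4.28 to 5.58, 5.23 and 5.52 in C57BL6J and stayed at 2.37 to 2.63 in 129S2SvPAs, a difference of -1.12 (SE 0.20, adjusted p = 0.0383, limma). Ift122, of the intraflagellar transport machinery of cilia, rose from 7.65, 7.60 and 7.90 to 8.42, 8.63 and 8.35 in C57BL6J. In 129S2SvPAs it went from 7.64, 7.70 and 7.80 to 7.57, 7.48 and 7.22, so the arrays separated in opposite ways. Its difference was -1.04 (SE 0.19, adjusted p = 0.0425, limma), with a second probe set at -0.95. Without 1 array, Pcsk6 was called in 2 of the 12 fits and Ift122 in 1.

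The 17 genes that fell in 129S2SvPAs alone included the 2 largest negative differences of the comparison. Tmprss4, a membrane serine protease, was at 3.34, 2.71 and 2.91 in C57BL6J control and 2.74, 2.79 and 2.68 in C57BL6J anti-GBM GN. In 129S2SvPAs it was at 7.23, 7.01 and 7.34 in control and 3.18, 3.52 and 2.93 in anti-GBM GN. The strains differed widely in control, and nephritis took 129S2SvPAs to the level of C57BL6J. The difference was -3.73 (SE 0.26, adjusted p = 0.000308, limma). The predicted gene Gm16316 behaved alike, with 129S2SvPAs control arrays at 6.80, 5.91 and 6.03 and all 9 others at 2.82 to 3.02, a difference of -3.27 (SE 0.27, adjusted p = 0.000767, limma). Both C57BL6J responses are bounded by the floor.

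Syn3 and Snap91, named for their roles at synapses as a synapsin and as the clathrin assembly protein AP180, were the 2 of 25 synaptic and vesicle genes called (8.0%, against 0.294% of all genes). Podocytes also use such vesicle proteins. Syn3 read 3.92, 3.39 and 3.70 in C57BL6J control and 4.58, 4.12 and 4.08 in C57BL6J anti-GBM GN, a response of 0.59 that did not pass the threshold although the arrays were apart. It fell in 129S2SvPAs from 5.34, 5.82 and 4.82 to 3.01, 3.03 and 3.25, and the difference was -2.82 (SE 0.34, adjusted p = 0.00641, limma), with a second probe set at -1.03. Snap91 was at 2.37 to 3.51 on the C57BL6J arrays, at 6.27, 6.11 and 6.81 in 129S2SvPAs control and at 3.46, 4.38 and 4.40 in 129S2SvPAs anti-GBM GN. Its difference was -2.71 (SE 0.46, adjusted p = 0.0358, limma). The list median was -0.05. Without 1 array, Syn3 was called in all 12 fits and Snap91 in 2.

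Several other genes of this group had high 129S2SvPAs control levels that fell toward or below those of C57BL6J. Pbld2 went from 8.51, 8.33 and 8.25 to 6.43, 6.35 and 6.21 in 129S2SvPAs, with C57BL6J at 6.78 to 6.97 in control and 6.28 to 6.77 in anti-GBM GN, a difference of -1.70 (SE 0.20, adjusted p = 0.00559, limma). Proz, the coagulation cofactor protein Z, fell from 5.71, 5.76 and 6.35 to 2.84, 3.69 and 4.00, a difference of -2.20 (SE 0.38, adjusted p = 0.0366, limma). Elobl fell from 5.66, 5.41 and 5.41 to 4.54, 4.16 and 4.45 in 129S2SvPAs and was at 2.41 to 3.00 in C57BL6J. Dhx34, a helicase of nonsense-mediated decay, and Gm15848 differed by -1.51 and -1.17. Afap1, an actin filament associated protein, moved from 8.94, 8.66 and 8.79 to 9.05, 9.04 and 9.19 in C57BL6J and from 9.18, 9.47 and 9.29 to 8.76, 8.79 and 8.64 in 129S2SvPAs. Its difference was -0.88 (SE 0.16, adjusted p = 0.0457, limma), and another probe set at 2.95 to 3.12 gave 0.00.

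The remaining 7 genes of this group follow. Ppargc1a, the PGC-1 alpha coactivator that drives mitochondrial biogenesis, was at 8.30, 8.18 and 8.18 in C57BL6J control and 7.89, 8.26 and 7.99 in C57BL6J anti-GBM GN. It fell in 129S2SvPAs from 8.42, 8.42 and 8.44 to 7.50, 7.19 and 7.34. The difference was -0.91 (SE 0.17, adjusted p = 0.0479, limma), and 4 further probe sets gave -0.63 to -1.30. Among 26 genes of fatty acid oxidation and PPAR alpha it was the called one, and the median was 0.18. Eci3, described below, was called but is not in that list. Of 43 respiratory chain subunits none was called, none had an unadjusted p under 0.05, and the median was -0.03. Asah2, a neutral ceramidase, fell from 8.08, 8.14 and 8.14 to 7.17, 7.17 and 6.96 in 129S2SvPAs, while C57BL6J arrays overlapped at 8.16 to 8.47. Its difference was -1.01, and another probe set past the filter gave -0.40. Ddo, a D-aspartate oxidase, differed by -1.24 and its second probe set by -1.67. Mdm4, an inhibitor of p53, differed by -0.91, but another probe set past the filter, with signals of 3.04 to 3.55, gave 0.12. The differences of Greb1l, Ly6g2 and Lrrc61 were -1.36, -1.26 and -1.14. Of the genes that fell in 129S2SvPAs alone, Dhx34 was called in 4 of the 12 fits without 1 array, Asah2, Gm15848 and Ly6g2 in 3, Proz, Elobl and Mdm4 in 2, and Ddo, Ppargc1a, Afap1, Greb1l and Lrrc61 in 1.

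The final group of 5 genes fell in both strains and further in 129S2SvPAs. Dnase1, a secreted nuclease made abundantly by kidney tubules, read 13.58, 14.11 and 13.71 in C57BL6J control and 12.53, 12.59 and 12.70 in C57BL6J anti-GBM GN. It read 14.41, 14.74 and 14.36 in 129S2SvPAs control and 12.08, 11.80 and 11.49 in 129S2SvPAs anti-GBM GN. The strain order was reversed, higher in 129S2SvPAs control and lower in 129S2SvPAs anti-GBM GN, with a difference of -1.52 (SE 0.26, adjusted p = 0.0358, limma).

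Dnajc12, a co-chaperone of aromatic amino acid hydroxylases, fell by 0.69 in C57BL6J and by 2.21 in 129S2SvPAs, a difference of -1.53 (SE 0.24, adjusted p = 0.0307, limma). Its 129S2SvPAs arrays went from 12.49, 12.17 and 12.08 to 9.76, 10.13 and 10.21. Isoc2b went from 6.12, 6.40 and 6.96 to 3.64, 3.49 and 4.06 in 129S2SvPAs and from 6.79, 6.75 and 6.42 to 5.44, 5.59 and 5.75 in C57BL6J, a difference of -1.70 (SE 0.31, adjusted p = 0.0435, limma). Eci3, an isomerase of fatty acid oxidation, differed by -1.14 (SE 0.19, adjusted p = 0.0358, limma), with nephritic arrays at 9.64 to 9.78 in 129S2SvPAs and 10.08 to 10.52 in C57BL6J. Dym, the Golgi protein dymeclin, was higher in 129S2SvPAs control, at 9.71 to 10.02 against 7.95 to 8.08, and overlapped in anti-GBM GN, a difference of -1.42, with a second probe set at -1.61. Without 1 array, Dnajc12 was called in 5 of the 12 fits and the other 4 genes in 2.

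Tubule marker lists were set beside the groups that fell in 129S2SvPAs. None of 45 proximal tubule genes was called in limma, but the unadjusted p was under 0.05 for 12 more negative and 1 more positive, 35 lay below 0, and the median was -0.35. Over all 11921 genes the unadjusted p was under 0.05 for 642 more negative and 656 more positive. In C57BL6J 4 of the 45 fell and none rose, and in 129S2SvPAs 19 fell and 2 rose, where 7.09% and 20.3% of all genes changed in either direction. The list mean ran from 0.08 to 0.34 in C57BL6J control, -0.23 to 0.10 in C57BL6J anti-GBM GN, 0.14 to 0.39 in 129S2SvPAs control and -0.44 to -0.31 in 129S2SvPAs anti-GBM GN. Of 37 genes that mark later nephron segments, from the loop to the collecting duct, Tmprss4 was called, 27 lay below 0, and the median was -0.24. That list was at 0.35 to 0.52 in 129S2SvPAs control, the highest of the groups, and at -0.33 to -0.10 in 129S2SvPAs anti-GBM GN. Slc34a1 and Umod differed by -0.28 (95% interval -1.04 to 0.47) and -0.10 (95% interval -0.45 to 0.26). With the proximal tubule mean as a covariate 7 genes were called, 6 of them among the 67 (Tmprss4, Gm16316, Nuf2, Serpina3n, Bub1 and Col5a3), and all 67 kept their sign. The size of the 67 differences was 0.747 to 1.29 times that without the covariate, with a median of 0.958, while the median standard error over all genes went from 0.263 to 0.331. Plin2 went from 2.37 to 2.56, Bag2 from 1.68 to 1.93, Txnrd1 from 1.27 to 1.29, Syn3 from -2.82 to -2.75 and Hmmr from -1.79 to -1.70. With the loop, distal and collecting duct mean 18 were called, 15 among the 67, with sizes 0.741 to 1.27 times those without it and a median standard error of 0.321.

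Of the 47 lists, 27 had no called member and 20 had at least 1, where 0.562% of all genes were called. At that share a list with no called member does not show equal responses. Of 53 actin and motility genes, 34 rose in C57BL6J and 37 in 129S2SvPAs, where 7.09% and 20.3% of all genes changed. None was called in the limma difference, 4 were more positive and 1 more negative at an unadjusted p under 0.05, and the median was 0.19. Tagln, a smooth muscle actin-binding protein, rose by 5.29 and 5.70 and differed by 0.41 (95% interval -0.44 to 1.26). Acta2, smooth muscle actin, differed by 0.69 (95% interval -0.14 to 1.53). Of 31 interferon response genes none was called, 2 in each direction had an unadjusted p under 0.05, and the median was -0.14. The interferon-induced antiviral gene Rsad2 rose by 2.24 and 3.03, a difference of 0.79 (95% interval 0.12 to 1.45, adjusted p = 0.366, limma). Of 30 immediate early response genes 15 rose in C57BL6J and 20 in 129S2SvPAs against the same background, none was called, and 7 were more positive at an unadjusted p under 0.05 and none more negative. Over all 11921 genes, 1298 had an unadjusted p under 0.05 in either direction. The clock output gene Dbp had the widest interval of those named, -3.11 to 3.12 around 0.00, with C57BL6J anti-GBM GN arrays at 6.41, 8.29 and 10.98.

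The threshold has no gap at its edge. The last called genes were Ppargc1a, Ncbp1 and Cdc25b with adjusted p of 0.0479, 0.0479 and 0.0482, and the next were Gm14057, Ip6k2 and Mgp with 0.0503, 0.0523 and 0.0558 in limma. A large estimate was not enough for a call, as Hmox1, the heme oxygenase of the NRF2 pathway, had 2.78 (SE 0.55, adjusted p = 0.0586, limma). Of the 67 called genes 34 had 1 probe set, and 18 had another that passed the filter. Of those 27 other probe sets 23 had the sign of the one used, 12 of them with an unadjusted p under 0.05. The other 4 were 3 of opposite sign, of Hmmr, Mdm4 and Tmed5, and that of Afap1 at 0.00.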

How the data were processed

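The table deposited by the authors gives log2 signals with 2 decimals for 45037 probe sets. MAS5 and GCRMA are named in the submitters' processing notes without versions, and which of them produced the values is not stated; the scale was inferred from the range, 1.12 to 15.02. Genes did not look centred, and the number of arrays limits the precision. No array or scan dates were at hand, so no batch by date could be examined. The replicate number was examined as a block. Probe sets were named from the platform annotation and matched by Entrez identifier for 34741, which changed no symbol. Of the probe sets 34957 had 1 symbol, 920 several and 9160 none, and only the first kind was used. For each of 18201 genes the probe set of highest mean was kept, and 11921 genes exceeded 3.03 on at least 3 arrays.

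The difference of responses was fitted with limma 3.58.1 in R 4.3.3, with 1 mean per group over 12 arrays, empirical Bayes moderation (10.7 total degrees of freedom), 2-sided tests and Benjamini-Hochberg adjustment over all genes tested. The fit was tested on simulated data. The labels say 3 mice per group. Promoters are RefSeq GRCm38.p6, and 50 of the 67 called genes had one. Figures were drawn with Python 3.11.15 and matplotlib 3.10.9.

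The comparison, the 47 gene lists and the rule for named genes were chosen with earlier results of these data known. The rule takes the 15 largest differences of each sign among called genes, up to 6 called members of each list, called genes whose arrays separate in opposite ways, and 22 fixed genes. The 29 called genes outside it, and Hmox1, Gm14057, Ip6k2 and Mgp, were chosen after their values were seen. Alternatives were quantile normalization, a shift to one median, a stricter filter (75th percentile) or none, averaging a gene's probe sets, testing probe sets singly, array weights, a robust prior with a trend, an absolute log2 difference of at least 1, the replicate number as a block, the proximal tubule mean as a covariate and leaving out each array. The endothelial and distal tubule covariates were chosen after seeing the data.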

Additional observations from a re-analysis of the deposited data

Results flagged for a closer look

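A test of the difference between the strains marked 32 genes as more positive in 129S2SvPAs and 35 as more negative, by limma's contrast of the responses at an adjusted p under 0.05. Each value is the 129S2SvPAs response minus the C57BL6J response on the log2 scale, and no explanation was tested. In these lists, alone means that the other strain's response did not pass the threshold, not that it was absent. Genes that rose in both strains differed by 3.22 for Lcn2, 2.42 for Col5a3, 2.38 for Cxcl1, 2.35 for Crct1, 2.34 for Cd14, 1.75 for Timp1, 1.41 for Cpe and 1.19 for Peg3. Among genes that rose in 129S2SvPAs alone the difference was 2.66 for Sulf1, 2.37 for Plin2, 2.32 for Chst1, 2.26 for Hspb8, 2.26 for Cbr3, 2.16 for Serpina3n, 1.68 for Bag2, 1.67 for Sphk1, 1.53 for Klhl30, 1.48 for Il34, 1.27 for Txnrd1, 1.16 for Dock11, 1.04 for Ppp1r14b, 1.02 for Gpx7, 0.98 for Ncbp1, 0.98 for Tmed5, 0.82 for Selenoi and 0.72 for Mab21l3. For those that fell in C57BL6J alone it was 2.44 for Esm1, 2.31 for Gm266, 2.16 for Tmc7, 1.71 for Smco3, 1.33 for Gja3 and 1.32 for C1qtnf7.

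On the negative side, genes that rose in C57BL6J alone differed by -2.45 for Nuf2, -2.05 for Kif23, -1.93 for Ckap2, -1.79 for Hmmr, -1.69 for Bub1, -1.60 for E2f7, -1.21 for Knstrn, -1.12 for Tpx2, -1.12 for Pcsk6, -1.04 for Ift122, -1.01 for Iqgap3, -0.71 for Kif18b and -0.62 for Cdc25b. Those that fell in 129S2SvPAs alone gave -3.73 for Tmprss4, -3.27 for Gm16316, -2.82 for Syn3, -2.71 for Snap91, -2.20 for Proz, -1.70 for Pbld2, -1.51 for Dhx34, -1.36 for Greb1l, -1.32 for Elobl, -1.26 for Ly6g2, -1.24 for Ddo, -1.17 for Gm15848, -1.14 for Lrrc61, -1.01 for Asah2, -0.91 for Mdm4, -0.91 for Ppargc1a and -0.88 for Afap1. The genes that fell in both strains gave -1.70 for Isoc2b, -1.53 for Dnajc12, -1.52 for Dnase1, -1.42 for Dym and -1.14 for Eci3. Adjusted p-values of the 67 genes ran from 0.000308 for Tmprss4 to 0.0482 for Cdc25b, and each test rests on 3 mice per group.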

How the results depend on the processing

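All 67 called genes kept their sign under every alternative with 1 value per gene in which they were tested, but the counts moved. With probe sets tested singly, other probe sets of Hmmr, Mdm4 and Tmed5 had the opposite sign and that of Afap1 was at 0.00. Against 32 more positive and 35 more negative genes, the counts were 13 and 5 with the filter at the 75th percentile (31 of the 67 tested), 139 and 147 with array weights (all 67 kept), 3 and 4 with the proximal tubule covariate, 12 and 11 with the endothelial and 7 and 11 with the distal tubule covariate. Leaving out 1 array gave 6 to 67 more positive and 9 to 69 more negative genes. Quantile normalization gave 25 and 33, a shift to one median 33 and 32, no filter 23 and 24, the mean of probe sets 24 and 29 and a trended and robust prior 27 and 28. For the moved counts the cause was not tested. The stricter filter tested fewer genes, and 13 of the 31 called genes that it still tested lost their call. Leaving out an array uses fewer arrays, and the count fell in all such fits but that without 129S2SvPAs anti-GBM GN replicate 1, where it rose to 136.

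With the replicate number as a block, 21 genes were called more positive and 12 more negative, and 30 of the 67 were kept. The numbers were not taken as pairs in the main fit, because no label says what they mark. Over 18 same-numbered pairs the deviations from group means correlated at -0.38 to 0.33, with 11 over 0.1, against -0.39 to 0.36 over 36 other pairs. These overlapping ranges cannot show that the numbers are unrelated to the signals. The 3 pairs of C57BL6J control with 129S2SvPAs control (0.244, 0.284 and 0.239) and of C57BL6J control with C57BL6J anti-GBM GN (0.208, 0.241 and 0.330) were all over 0.1, and 6 of the 7 pairs that were not involved replicates 1 and 3 of 129S2SvPAs anti-GBM GN. Those of C57BL6J anti-GBM GN with 129S2SvPAs control gave 0.0975, 0.214 and 0.187. Differently numbered pairs ran from -0.160 to -0.0846 between the controls and from -0.387 to 0.153 between C57BL6J control and C57BL6J anti-GBM GN. What the numbers mark was not tested.

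With 1 value per gene, the reversals were all in genes that were not called. Tagln was -0.27 with the proximal and -0.0088 with the distal tubule covariate, Slc34a1 0.41 and 0.17, and Umod 0.068 and 0.089. Cdkn1a was -0.60, -0.011 and -0.27 with the proximal tubule, endothelial and distal tubule covariates, and -0.31 to 0.55 when 1 array was left out. Pparg was 0.0064 after quantile normalization, 0.074 with the endothelial covariate and -0.19 to 0.12 without 1 array. Dbp was -0.02 with the mean of probe sets, -0.26 with array weights and -1.07 to 1.21 without 1 array. The cause of these was not tested.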
